A study of Mus musculus with 40 samples.

Results

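The aminoacyl-tRNA synthetases, the enzymes that attach each amino acid to its transfer RNA, were examined in whole pancreas of male mice. Members were the probes whose gene symbol on the array names a synthetase, which gave 56 of 25697 probes and 34 of 16593 genes. Of these, 36 probes of 20 genes belong to the cytosolic enzymes and 20 probes of 14 genes to the mitochondrial ones. Tarsl2, a cytosolic threonyl enzyme whose symbol ends in 2, was counted as cytosolic. Gars and Kars each encode both a cytosolic and a mitochondrial form and were also counted as cytosolic, so their signal cannot be divided between the compartments.

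The animals were C57BL/6J males (C57BL\6 in the labels) killed at 9 weeks of age, 40 in all and 10 in each of 4 groups. They were fasted for a short time before death. Mothers had eaten 1 of 2 diets from before mating until weaning, low in fat and high in carbohydrate (LF) or high in fat and low in carbohydrate (HF), with coconut oil the main source of fat, and the sons were then given either diet. Groups are written with the dam's diet first: LF_LF, LF_HF, HF_LF and HF_HF. The labels name 12 cages, 6 for each dam diet, read here as the cage of birth because 5 of them hold sons on both diets. Each group drew on 4 or 5 of them, so that animals of 1 group include cage mates, some of which may be littermates, and p-values partly measure the spread between cage mates. No cage held both dam diets, so the dam's diet and the birth cage cannot be told apart within a cage.

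Charging enzymes fall into class I and class II by the fold of the catalytic domain, and in mammals a set of the cytosolic enzymes is held in the multisynthetase complex on the scaffold proteins Aimp1, Aimp2 and Eef1e1. A separate set of nuclear genes serves mitochondrial translation. The acinar cell of the pancreas has one of the highest rates of protein synthesis of any mammalian cell, and many cytosolic synthetase genes are known targets of the transcription factor ATF4, which is translated when amino acids run short or the endoplasmic reticulum is stressed, together with genes of amino acid synthesis and transport.

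The values are normalized bead intensities on a linear scale with the background left in. Array medians lay at 62.9 to 63 by construction, and pairs of arrays correlated at 0.929 to 0.992 over all probes on the log2 scale. Acinar markers summed to between 196100 and 214100 in every animal (7 tested genes), which fits the tissue label. The 3 arrays LF_LF 1, LF_HF 1 and HF_HF 5 stood apart from the rest: LF_LF 1 had the highest adipocyte sum (2112, against a median of 349.8 in its group) and T and NK cell sum (392.4) of all animals, HF_HF 5 had the highest myeloid sum (4763, with 4747 in LF_LF 1), and LF_HF 1 the highest hepatocyte sum (11860). In whole tissue, fewer cells of a type and less RNA per cell cannot be told apart.

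A probe was tested where it exceeded the array median on 20 or more of the 40 arrays, and 28 of the 34 genes had such a probe. They were 18 of 20 cytosolic and 10 of 14 mitochondrial genes, with 42 probes between them. For the 10 genes with more than 1 such probe the brightest stands for the gene. Cars and Yars among the cytosolic enzymes and Aars2, Hars2, Pars2 and Yars2 among the mitochondrial ones did not pass. The 14 probes that did not pass had mean intensities of 50.4 to 62.4, at or below the array median. Signals of the 18 cytosolic representatives ran from 65.6 for Farsa and 66.3 for Hars to 394 for Wars, with Gars at 1684. The mitochondrial representatives ran from 63.6 for Nars2 to 117 for Rars2, with Fars2 at 330. Intensities of different probes depend on the probe as well as on the transcript, so these figures describe how far each probe stood above the array median and do not rank the enzymes. Probes this close to the median understate fold changes, since the background was not subtracted.

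The promoters of 5 synthetase genes held the letters TTNCATCA, the C/EBP-ATF element to which ATF4 binds as a dimer with a C/EBP partner, on one strand or the other. They are shown because the genes described below include many known ATF4 targets. RefSeq promoter sequences of 300 bases (250 before to 50 after the annotated start, GRCm38.p6) were at hand for 25 of the 34 genes. The element was found in 5 of 13 cytosolic genes with a sequence and in 0 of 12 mitochondrial ones, and in 3.97% of all 32851 promoters in the table. No sequence was at hand for Cars, Hars, Lars, Nars, Rars, Vars and Wars among the cytosolic genes. For Aars and Yars the start used by the promoter table lies inside the outer limits of the annotated gene, so their windows belong to a start further in. A match describes the letters in this window, not a bound site. Capitals mark the element, read on the strand of the gene. In Gars its first base lay 30 bases before the start, in Tars 15 before, in Aars 112 before and again at base 10 after, in Iars at base 8 after, and in Yars, as the reverse complement TGATGNAA, at base 4 after.
Gars, chr6:55037931-55037990, plus strand: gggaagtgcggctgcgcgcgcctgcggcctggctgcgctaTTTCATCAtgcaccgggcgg
Tars, chr15:11399654-11399713, minus strand: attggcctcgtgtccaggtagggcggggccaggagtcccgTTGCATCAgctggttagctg
Iars, chr13:49682097-49682149, plus strand: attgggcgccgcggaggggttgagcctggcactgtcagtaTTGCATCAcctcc
Aars, first match, chr8:111033690-111033749, plus strand: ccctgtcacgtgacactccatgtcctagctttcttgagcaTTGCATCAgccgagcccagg
Aars, second match, chr8:111033811-111033861, plus strand: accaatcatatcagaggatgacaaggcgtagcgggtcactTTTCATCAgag
Yars, chr4:129189866-129189922, plus strand: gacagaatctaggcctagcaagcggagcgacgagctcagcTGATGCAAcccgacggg

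The first comparisons asked what the diet after weaning did to the synthetases within sons of similarly fed dams. In sons of LF dams (LF_HF against LF_LF) 0 of 28 synthetase genes passed the test (limma, Benjamini-Hochberg over 12246 probes), where 0.0408% of all probes did. In sons of HF dams (HF_HF against HF_LF) 0 of 28 passed, where 2.24% of all probes did. At an unadjusted p under 0.05 there were 4 genes in each comparison, and 8.95% and 17.6% of all probes. The comparisons share no animals.

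Gars, the glycyl enzyme of cytosol and mitochondria (probe ILMN_2678200; chr6:55038001-55079504), was the synthetase that differed most clearly by diet. Its intensity ran from 1337.1 through a median of 1481 to 1825.1 in LF_LF and from 1581.3 through 1814 to 2395.2 in LF_HF. In sons of HF dams it ran from 1250.6 through 1490 to 1869.3 in HF_LF and from 1634.4 through 1766 to 2230.4 in HF_HF. The ranges of fed groups overlapped, but all 10 LF_HF and all 10 HF_HF animals lay above the median of the LF-fed group with the same dams. The difference was 0.25 on the log2 scale (SE 0.08, 1.19-fold, adjusted p = 0.29) from LF dams and 0.26 (SE 0.07, adjusted p = 0.0561) from HF dams, neither past the threshold with 10 animals a group. In 1 fit over all 40 animals, which averages the post-weaning effect over both dam diets, Gars rose on the HF diet by 0.25 (SE 0.05, 95% interval 0.15 to 0.36, adjusted p = 0.00328). All 20 HF-fed animals exceeded the median of the 20 LF-fed ones.

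The same direction was seen within birth cages. Of the 12 cages, 5 held sons on both diets, and mean Gars was higher in the HF-fed sons in each: by 0.34 and 0.21 on the log2 scale in cages 4 and 11 of LF dams, and by 0.43, 0.13 and 0.28 in cages 10, 20 and 23 of HF dams. The cage means rest on 1 to 3 animals per diet. With the cage as a fixed block the difference was 0.28 (adjusted p = 0.016). With 1 mean per cage and group it was 0.22 and no longer passed (adjusted p = 0.0974).

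Mars1, the methionyl enzyme of the multisynthetase complex (ILMN_2534090; chr10:127296221-127311786), had the next smallest p in sons of LF dams. It ran from 175.7 through 320 to 355.7 in LF_LF and from 329.9 through 359 to 405.7 in LF_HF. All 10 LF_HF animals lay above the LF_LF median, and the lowest value belonged to LF_LF 1. The difference was 0.28 (SE 0.09, adjusted p = 0.32) with that animal and 0.20 without it. From HF dams, HF_LF ran from 252.6 through 334 to 352.6 and HF_HF from 303.9 through 330.7 to 404.9, a difference of 0.08 that did not pass. Averaged over both dam diets Mars1 differed by 0.18 (SE 0.06, adjusted p = 0.0558), just outside the threshold. Without LF_LF 1 the averaged difference was smaller, 0.14, and passed (adjusted p = 0.0352), and a second Mars1 probe, ILMN_2828687, differed by 0.12 (SE 0.04, adjusted p = 0.0902).

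In sons of HF dams the next smallest p among the cytosolic enzymes belonged to Rars, the arginyl enzyme of the complex (ILMN_2591217; chr11:35808381-35834528). HF_LF ran from 144.5 through 184.8 to 225.1 and HF_HF from 137.7 through 153.8 to 190.3, with 9 of 10 HF_HF animals below the HF_LF median. The difference of -0.23 (SE 0.08, adjusted p = 0.119) did not pass. In sons of LF dams the medians were 165.2 and 167, so the 2 strata differed in value, but the test of that difference, the interaction, gave -0.23 (SE 0.11, adjusted p = 0.866). A second Rars probe differed by -0.04 (SE 0.05) on the averaged scale, where the first gave -0.11 (SE 0.06).

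Among the mitochondrial enzymes Fars2, the phenylalanyl enzyme (ILMN_3139479; chr13:36117428-36537595), had the smallest p in sons of HF dams. It ran from 284.9 through 353.6 to 492 in HF_LF and from 286.1 through 303.5 to 332 in HF_HF. All 10 HF_HF animals lay below the HF_LF median, and the SD was 69.9 in HF_LF against 17.3 in HF_HF. The difference was -0.22 (SE 0.08, adjusted p = 0.157). In sons of LF dams the values ran from 278.7 through 335.2 to 386.2 in LF_LF and from 296.8 through 318.2 to 336.8 in LF_HF, a difference of -0.04. Averaged, Fars2 differed by -0.13 (SE 0.05, adjusted p = 0.115), and it was the single mitochondrial gene of 10 with a negative averaged value.

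The other mitochondrial genes with the smallest p had signals near the array median and small differences, none past the threshold. Nars2, the asparaginyl enzyme, ran from 57.6 through 62.1 to 67.3 in LF_LF and from 60.9 through 64.85 to 70.5 in LF_HF, a difference of 0.07 (SE 0.03, adjusted p = 0.566). Lars2, the leucyl enzyme, ran from 87.1 through 97.8 to 104 in LF_LF and from 89.7 through 100.4 to 113.4 in LF_HF, a difference of 0.05. Mars2, the methionyl enzyme, ran from 59.4 through 66.35 to 68.3 in HF_LF and from 64.1 through 67.95 to 74.7 in HF_HF, a difference of 0.07 (SE 0.03, adjusted p = 0.306). In each the groups overlapped.

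**Figure D1:**
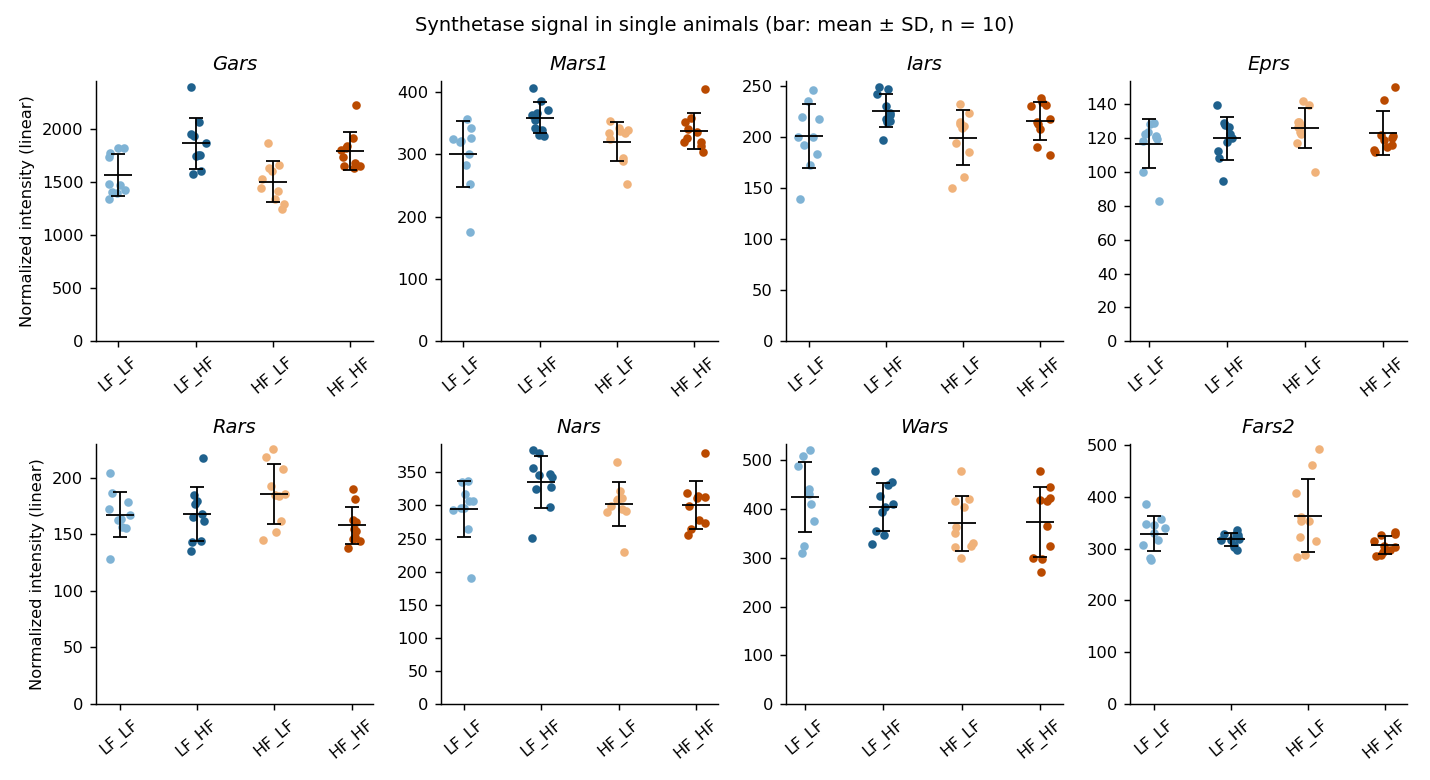
Normalized intensity (linear, vertical axis from 0) of 8 synthetase probes in single animals, with 10 points per group and bars for the mean ± SD. HF-fed groups sit higher for Gars (medians 1814 and 1766 against 1481 and 1490), the lowest Mars1 and Nars values are those of LF_LF 1, and the ranges overlap in every panel.

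The intervals show how large a difference the 28 genes could still hide. In sons of LF dams the 95% intervals reached at most 1.39-fold upwards (Mars1) and 1.19-fold downwards (Wars) among the cytosolic genes, and 14 of 18 lay wholly within 1.2-fold either way. The 10 mitochondrial intervals all lay within 1.2-fold. In sons of HF dams 14 of 18 cytosolic and 9 of 10 mitochondrial intervals lay within 1.2-fold, with Fars2 as the mitochondrial exception (up to 1.32-fold lower). These are intervals of bead intensity with the background left in, so changes in the transcripts themselves could be larger.

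Averaging over both dam diets, 1 of 28 synthetase genes passed the test, Gars, where 5.22% of all probes passed (2.75% higher and 2.47% lower). At an unadjusted p under 0.05 there were 5 genes, and 19.1% of all probes. Both shares are no higher than the background. Of the 18 cytosolic genes 9 were higher and 9 lower on the HF diet, with a median log2 difference of -0.00, and of the 10 mitochondrial genes 9 were higher with a median of 0.03. Over all 8858 genes tested 49.2% were higher and the median was -0.00. In the list of synthetases known as ATF4 targets 7 of 10 were higher with a median of 0.08 (highest Gars, lowest Lars at -0.06), and among the 8 other cytosolic genes 2 were higher with a median of -0.03. The 7 multisynthetase enzymes with a tested probe split 4 to 3, and none of the 3 scaffold genes passed (Aimp1 -0.13, adjusted p = 0.0954). Dars, the aspartyl enzyme of the complex, had no probe on this array and was not measured.

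The amino acid response genes, counted from a list of ATF4 targets other than synthetases, gave larger values in the same fit. Of 24 tested genes 23 were higher on the HF diet and 11 passed, with a median of 0.22, where 5.22% of all probes passed. The list was chosen with earlier results of these data known, so these counts describe it and are no independent test. Those that passed included the hormone gene Fgf21 (1.11, SE 0.14) and the glutathione-degrading enzyme Chac1 (0.82, SE 0.21). The transcription factor Atf5 (0.66, SE 0.12) and the asparagine synthetase Asns (0.27, SE 0.07, adjusted p = 0.0157) also passed. Chac1 differed by 1.455 (SE 0.26) in sons of LF dams and by 0.19 (SE 0.30) in sons of HF dams. Its interaction did not pass (-1.27, SE 0.42, adjusted p = 0.809). The difference of Gars is close to that of Asns, while Wars (-0.03), Tars (-0.04), Lars (-0.06) and Eprs (0.00) lay near 0. Whether the synthetases differ from the response genes was not tested. The tRNA charging genes that are not synthetases (4 tested) and the editing genes (3 tested) had none that passed.

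**Figure D2:**
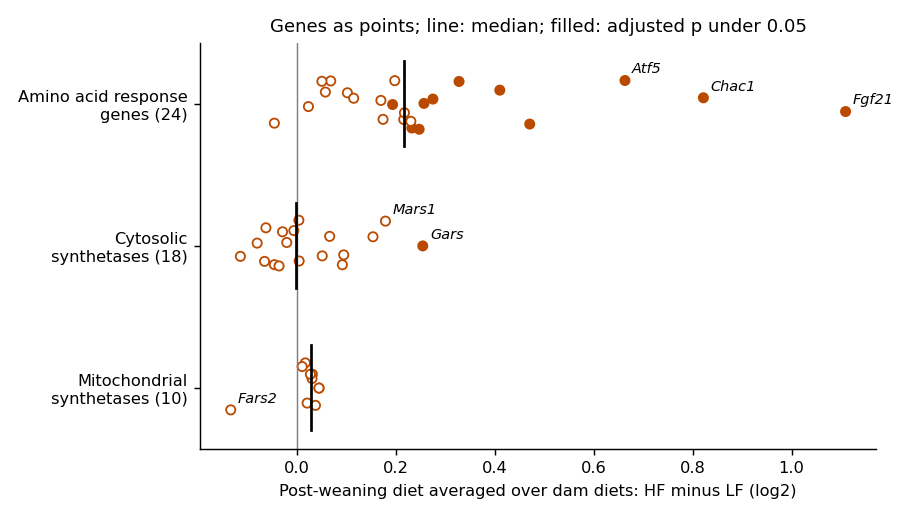
Log2 difference between HF-fed and LF-fed sons averaged over dam diets (horizontal axis) for 24 amino acid response genes, 18 cytosolic and 10 mitochondrial synthetases, each gene a point, filled where the adjusted p is under 0.05, with the median as a black line. The medians lie at 0.22, -0.00 and 0.03, and Gars at 0.25 is the filled synthetase.

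Different probes of 1 gene did not always give the same value. Wars, the tryptophanyl enzyme, had 4 tested probes, with averaged differences of -0.03 for the brightest (ILMN_1254157), 0.00, -0.11 and -0.19. The last, ILMN_3156343, passed (SE 0.06, adjusted p = 0.047). It ran from 132.7 through 186.2 to 229.6 in LF_LF, from 139.3 through 159.8 to 191.5 in LF_HF, from 151.1 through 183.3 to 194.7 in HF_LF and from 125.5 through 154.4 to 190.7 in HF_HF. Of the 20 HF-fed animals 17 lay below the median of the LF-fed ones. A call for Wars therefore depends on the probe, and whether these probes read different transcripts was not tested. Counting all 42 probes, 2 passed, 1 in each direction.

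Most of the other cytosolic genes moved little with the diet after weaning. Iars, the isoleucyl enzyme, differed by 0.15 (SE 0.06, adjusted p = 0.0942) on the averaged scale, and Qars, the glutaminyl enzyme, by -0.08 (SE 0.03, adjusted p = 0.179), with 17 of 20 HF-fed animals beyond the median of the LF-fed ones in each. The alanyl enzyme Aars differed by 0.09 and the seryl enzyme Sars by 0.07. The lysyl enzyme Kars (0.00) and the histidyl enzyme Hars (-0.01) were the closest to 0 beside Eprs. None of these passed.

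The genes also differed in how much animals of 1 group varied. The within-group SD on the log2 scale ran from 0.07 (Hars) to 0.24 (Wars) among the 18 cytosolic representatives and from 0.06 (Vars2) to 0.16 (Fars2) among the 10 mitochondrial ones. The genes with the widest spread after Wars were Nars (0.19), Rars (0.19), Mars1 (0.18), Iars (0.18) and Lars (0.18). Dim probes such as Hars at 66.3 are compressed by the background, so a small spread there does not show a steady transcript.

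The maternal comparisons asked what the dam's diet left behind in sons fed alike. Among LF-fed sons (HF_LF against LF_LF) 0 of 28 synthetase genes passed, and 0% of all probes did. Among HF-fed sons (HF_HF against LF_HF) 0 of 28 passed, and again 0% of all probes. At an unadjusted p under 0.05 there were 1 and 2 synthetase genes, beside 8.58% and 6.21% of all probes.

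Rars2, the mitochondrial arginyl enzyme (ILMN_2750676; chr4:34614957-34660167), had the smallest p over all animals. It ran from 91.5 through 109.6 to 135.5 in LF_LF and from 110.7 through 119.2 to 133.7 in HF_LF. In HF-fed sons it ran from 99.1 through 112 to 128.9 in LF_HF and from 111.5 through 118.1 to 160.6 in HF_HF. All 10 HF_LF animals lay above the LF_LF median and 8 of 10 HF_HF animals above the LF_HF median. The differences were 0.13 (SE 0.07, adjusted p = 0.576) and 0.13 (SE 0.06, adjusted p = 0.789), and the average over both was 0.13 (SE 0.05, adjusted p = 0.282), so none passed. Its other tested probes gave averaged differences of 0.08 (SE 0.04) and 0.09 (SE 0.04), in the same direction. In the averaged comparison 0 of 28 synthetase genes passed, where 0.0653% of all probes did, and 3 had an unadjusted p under 0.05, beside 9.66% of all probes.

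The remaining genes named by the smallest p in the maternal comparisons had smaller or less regular differences. Ears2, the mitochondrial glutamyl enzyme, ran from 77.9 through 99.85 to 109.6 in LF_LF and from 96.2 through 101.9 to 115 in HF_LF (0.09, SE 0.06), and from 88.5 through 99.1 to 118.5 in LF_HF and from 99.1 through 106.4 to 111.9 in HF_HF (0.08, SE 0.05). Farsb, the beta subunit of the cytosolic phenylalanyl enzyme, ran from 278.1 through 299.8 to 329.4 in LF_LF and from 305.9 through 319.2 to 394.6 in HF_LF (0.12, SE 0.05, adjusted p = 0.547), with all 10 HF_LF animals above the LF_LF median. The brightest Wars probe ran from 310.1 through 433.4 to 521.9 in LF_LF and from 300.3 through 357.2 to 478.9 in HF_LF (-0.19, SE 0.10, adjusted p = 0.604). In all 3 the groups overlapped.

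Among HF-fed sons the smallest cytosolic p belonged to Nars, the asparaginyl enzyme (ILMN_1227163), which ran from 250.9 through 344.5 to 383.5 in LF_HF and from 255.8 through 304.8 to 379.6 in HF_HF. The difference was -0.16 (SE 0.07, adjusted p = 0.788), with 9 of 10 HF_HF animals below the LF_HF median. Mars1 differed by -0.09 (SE 0.05, adjusted p = 0.826) in the same comparison. The 95% intervals of the maternal comparisons lay within 1.2-fold for 13 of 18 cytosolic and 8 of 10 mitochondrial genes in LF-fed sons and for 16 of 18 and 10 of 10 in HF-fed sons. These comparisons share their groups with the post-weaning ones.

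**Figure D3:**
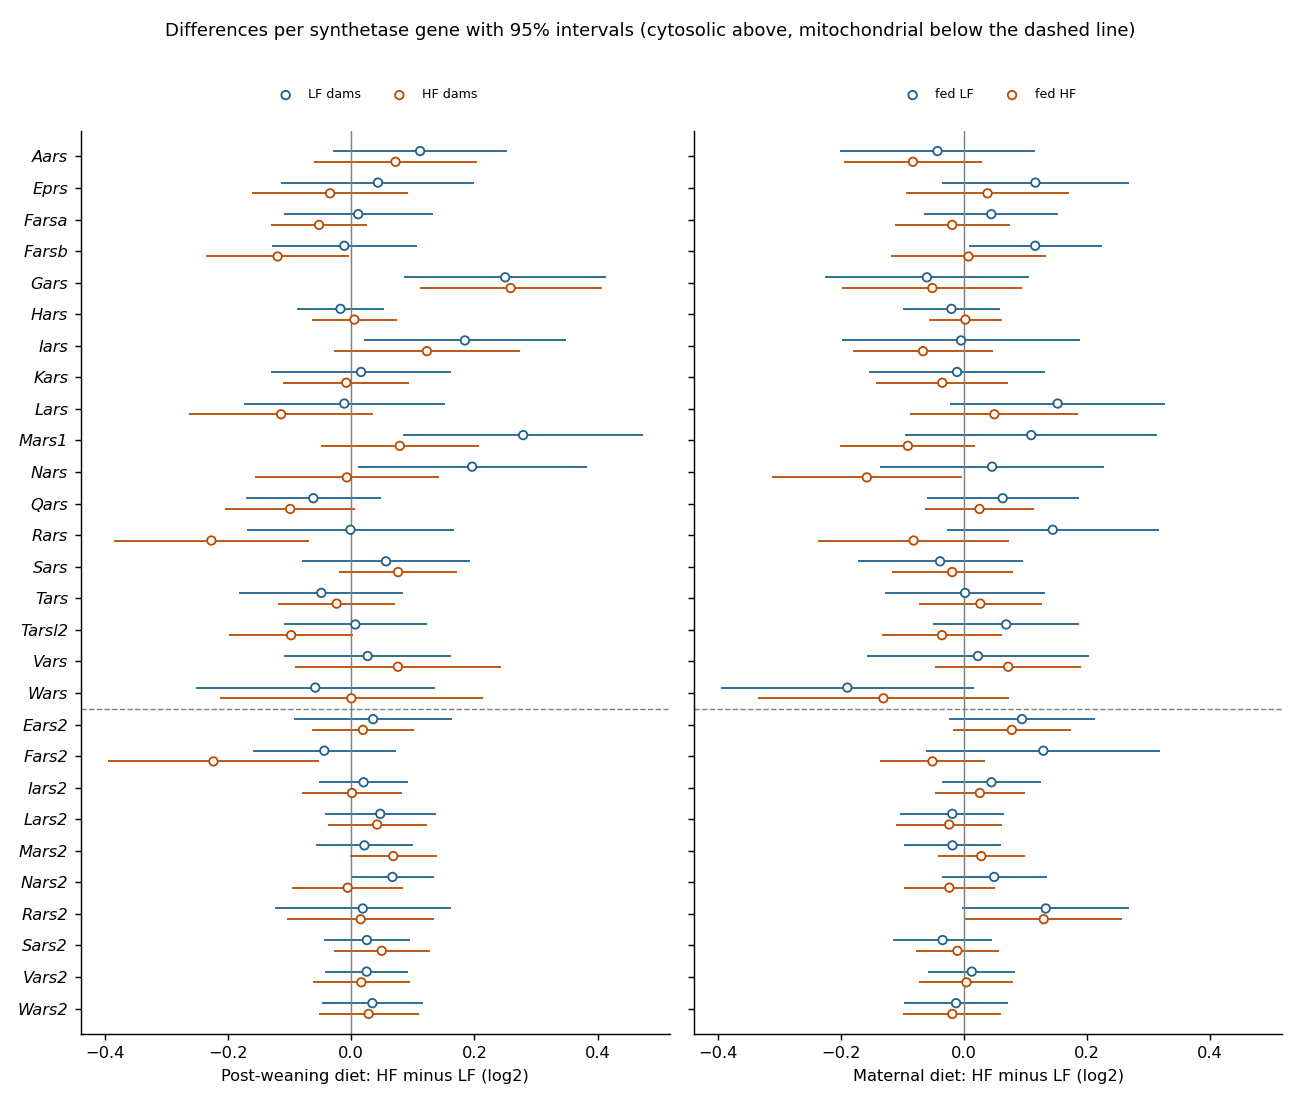
Log2 differences with 95% intervals for the 28 tested synthetase genes, with the post-weaning diet on the left (HF minus LF, sons of LF or HF dams) and the maternal diet on the right (HF minus LF dams, sons fed LF or HF). All circles are open because no gene passed in these 4 comparisons; Gars stands at 0.25 and 0.26 on the left and Rars2 at 0.13 and 0.13 on the right.

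The interaction asked whether the post-weaning difference depended on the dam's diet. Of 28 synthetase genes 0 passed, where 0% of all probes did, and 0 had an unadjusted p under 0.05, beside 5.52% of all probes. The value was negative, meaning a lower HF minus LF difference in sons of HF dams, for 20 of 28 genes (median -0.02). It was also negative for 7 of 7 tested multisynthetase enzymes (median -0.08), beside 48.7% positive values over all genes. In all 7 enzymes the lowest LF_LF value belonged to LF_LF 1, an array that stood apart. A low LF_LF value pushes the interaction down, and the part of this animal in the signs was not tested. Rars (-0.23), Nars (-0.20), Mars1 (-0.20) and Fars2 (-0.18) had the smallest p, and the lowest adjusted p among the 28 was 0.866.

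Animals of 1 group also differed among themselves, and the last comparison asked which synthetases varied with the amino acid response genes once the group means had been removed. The mean log2 intensity of the 24 response genes ranged from 0.38 below to 0.26 above its group mean. A slope of 1 means that a gene changed by as much, on the log2 scale, as that mean. Of 28 synthetase genes 7 passed, all with positive slopes and all cytosolic, where 2.38% of all probes passed (1.16% with positive slopes, and 1.01% once the probes of the response genes were left out). Over all genes the median slope was 0.02 and 55.3% were positive, while the 18 cytosolic synthetases had a median of 0.35 with 15 positive and the 10 mitochondrial ones a median of 0.01 with 5 positive. Apart from Fars2 the mitochondrial probes had mean intensities of only 63.6 to 117, where the background left in compresses slopes. With background subtraction Rars2 had a slope of 0.50 (0.37 before), Ears2 of 0.33 (0.24) and Lars2 of 0.33 (0.21). Nars2 and Sars2 turned positive, Wars2, Vars2 and Fars2 stayed negative, and no mitochondrial gene passed. The difference between the compartments was not tested, and these medians cannot separate it from probe brightness.

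The isoleucyl enzyme Iars (ILMN_2810045; chr13:49682130-49734267) had a slope of 0.79 (SE 0.14, adjusted p = 0.00103) and Eprs, which joins the glutamyl and prolyl enzymes in 1 protein (ILMN_3069857; chr1:185361417-185428360), of 0.71 (SE 0.13, adjusted p = 0.00103). Mars1 followed at 0.78 (SE 0.15), Rars at 0.78 (SE 0.15), Nars at 0.72 (SE 0.17), Gars at 0.64 (SE 0.15) and the leucyl enzyme Lars at 0.60 (SE 0.16), with adjusted p between 0.0034 and 0.0366. These 7 include 5 of the 7 tested multisynthetase enzymes and 6 of the 10 tested ATF4-target synthetases. Eprs, Iars, Lars and Mars1 stand in both lists, so these counts are not separate traits. Gars and Nars lie outside the complex, and Rars lies outside the ATF4 list. Kars and Qars, the other tested enzymes of the complex, did not pass. Second probes of Iars (1.00, SE 0.22), Mars1 (0.55), Rars (0.51) and Eprs (0.47) passed as well, so that 11 of 42 probes did. Wars had a slope of -0.39 (SE 0.24) that did not pass. Of the 7 genes, Gars and Iars held the C/EBP-ATF element shown above, and Eprs and Mars1 had a promoter sequence without it. Lars, Nars and Rars had no sequence. Aars and Tars held the element and did not pass, with slopes of 0.32 and 0.36.

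The level of Iars ran from 139.1 through 199.8 to 245.8 in LF_LF, from 196.5 through 222.4 to 249 in LF_HF, from 149.8 through 209.7 to 232.4 in HF_LF and from 182 through 215.7 to 237.6 in HF_HF. Eprs ran from 82.7 through 120.8 to 129 in LF_LF, from 94.4 through 121 to 139.3 in LF_HF, from 100 through 127 to 141.8 in HF_LF and from 111.4 through 119.5 to 150.1 in HF_HF. The 4 groups overlapped in both genes, while most LF_HF values of Iars lay above the LF_LF median. The mean of all 18 cytosolic synthetases was lowest in LF_LF 1 (7.28 on the log2 scale, against a group median of 7.59) and HF_LF 5 (7.42, against 7.60), and the same animals had the lowest response means of their groups (7.504 and 7.585). The mitochondrial mean in LF_LF 1 was 6.50 against a group median of 6.56.

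With the cage as a fixed block Rars (0.36, adjusted p = 0.385) and Gars (0.35, adjusted p = 0.362) no longer passed, and the other 5 genes did. In that fit 1112 of 12246 probes passed, against 292 in the main fit, so keeping a call there was easier for any probe. The number of calls also changed when single animals were left out. Without LF_LF 1 the synthetases that passed were 3, Rars (0.73), Iars (0.67) and Eprs (0.59), with adjusted p of 0.0324 to 0.0407, and without HF_LF 5 they were 4. Without the 3 arrays that stood apart Iars alone passed (0.76, adjusted p = 0.0169), and without cage 8, which holds LF_LF 1, Eprs alone did (0.60, adjusted p = 0.0451). Gars had a slope of 0.65 without LF_LF 1 (adjusted p = 0.0909). The slopes of all 7 genes stayed positive in each of these fits. Calls over all 12246 probes moved as well, from 292 in the main fit to 35 without the 3 arrays. With a cage or an array left out they ran from 29 to 577. Whether synthetases lost calls more than other probes was not tested. Slopes of marker genes are given for some cell types only, without the islet, hepatocyte, fibroblast and B cell lists. None of those given passed. They were negative for 5 of 5 myeloid genes (median -0.52), 3 of 3 adipocyte genes (median -1.30) and 2 of 2 T and NK cell genes (median -0.32). The same held for 4 of 5 duct genes (median -0.19) and 3 of 4 endothelial genes (median -0.11). The smallest adjusted p among them was 0.0508, in the duct list, and the 7 acinar genes had a median of 0.02. LF_LF 1 held the highest adipocyte sum and HF_LF 5 the highest duct sum (1968) of all animals, and the part of cell content in these slopes was not tested.

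**Figure D4:**
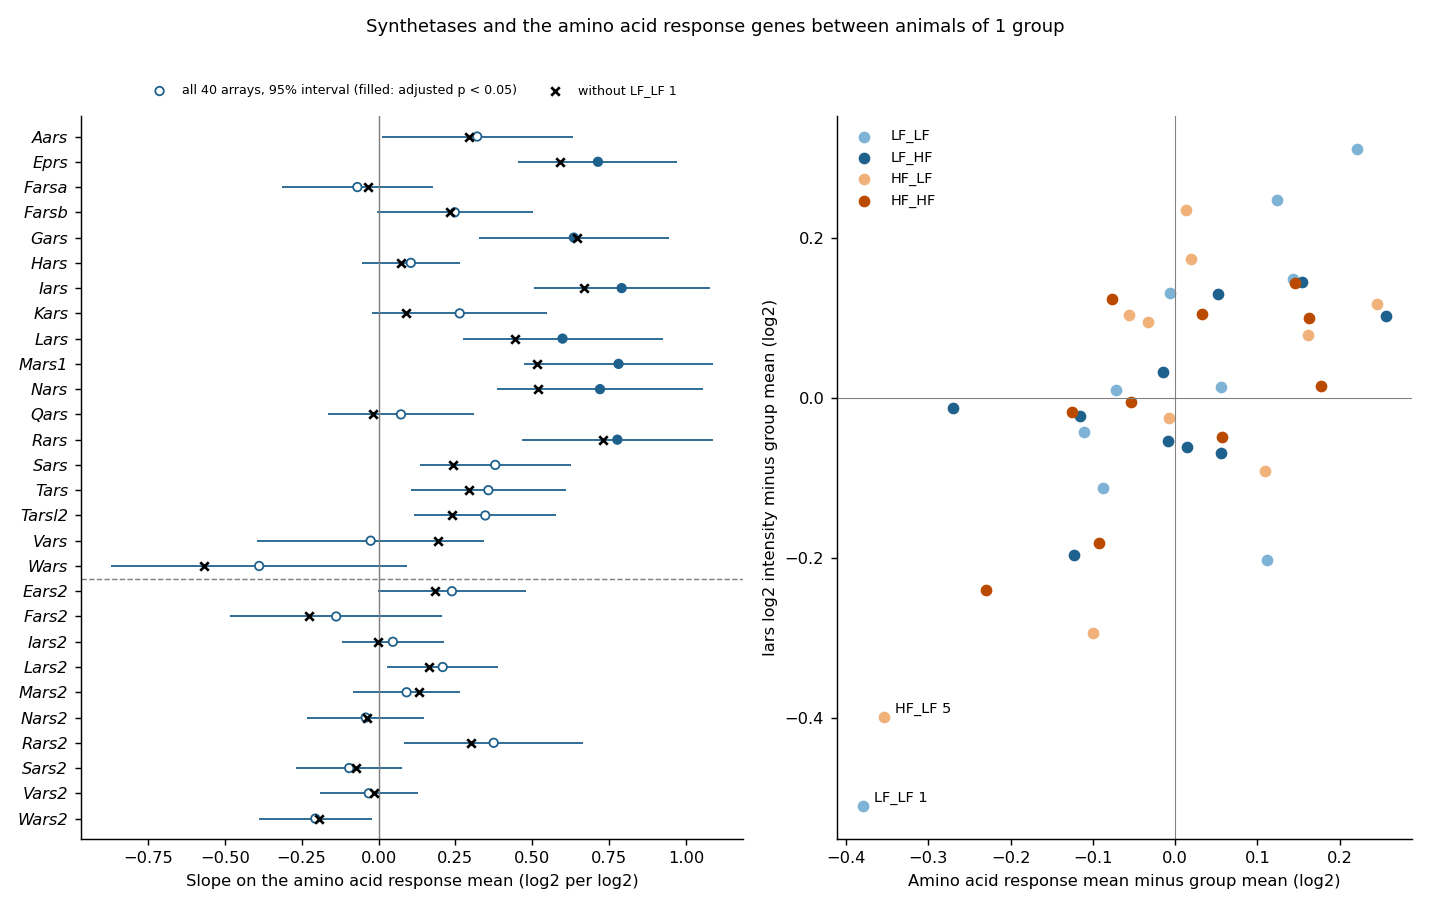
Left, slope of each synthetase on the amino acid response mean within groups (log2 per log2) with 95% intervals, filled where the adjusted p is under 0.05 over 40 arrays, and crosses for the value without LF_LF 1. Right, Iars against the response mean, both as log2 differences from the group mean, 1 point per animal, where LF_LF 1 and HF_LF 5 lie lowest on both axes and Iars has a slope of 0.79 with all animals and 0.67 without LF_LF 1.

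Other genes of tRNA charging and of the complex did not pass in this comparison. The 3 scaffold genes had positive slopes, Eef1e1 at 0.52 (SE 0.20), Aimp2 at 0.36 (SE 0.12) and Aimp1 at 0.30 (SE 0.16), with a lowest adjusted p of 0.0963. The 4 other charging genes had a median of 0.06 and the 3 editing genes of 0.24. Of the 24 response genes themselves, from which the mean was made, 15 passed, and that count is not independent of the mean.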

How the data were processed

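Total RNA of whole pancreas was hybridized to Illumina MouseRef-8 v2.0 beadchips, 1 per animal. The deposited values are linear intensities that the authors exported from BeadStudio and quantile normalized over 40 arrays, without background subtraction, which compresses the changes of dim probes. Labels gave the groups, and replicate numbers follow the order of deposit. Intensities were taken to log2. Probes above their array's median in at least 20 arrays were tested (12246 of 25697) with limma 3.58.1 in R 4.3.3 (intensity trend, two-sided, Benjamini-Hochberg over those probes, called at an adjusted p under 0.05). Pairs of groups were fitted on their own 20 arrays, and averages, interaction and slopes on all 40. Scripts were tested on simulated data. The platform table gave 23978 probes 1 gene symbol and 1719 none. Named genes were those called, and the 2 cytosolic and 2 mitochondrial genes with the smallest p in each pair of groups; values of genes named only for slopes or for contrast were chosen after they were seen. Members and lists were chosen with earlier results of these data known. Promoters and positions are RefSeq's (GRCm38.p6). Alternatives covered the variance model, normalization, background, filter, array weights, arrays that stand apart (distance to the median array over 3 interquartile ranges above the upper quartile), birth cage, probe choice and leaving out each cage or array. Figures used Python 3.11.15 with numpy 2.4.6, pandas 2.3.3 and matplotlib 3.10.9.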

Additional observations from a re-analysis of the deposited data

Results flagged for a closer look

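In each group of 10 animals the gap between the most extreme value and its neighbour was set against the whole range on the log2 scale, for the 28 representative probes. It was wide in 7 of 112 group and probe combinations (6.25%), and chance alone gives about 1 in 20. The share is close to that figure, and values of different genes from the same array are not independent. The low values were 190.2 for Nars, 175.7 for Mars1 and 128.6 for Lars in LF_LF 1, 230.3 for Nars and 150.9 for Lars in HF_LF 5, and 90.8 for Iars2 in LF_HF 7. The single high value was 2230.4 for Gars in HF_HF 8, the animal with the lowest amino acid response mean of its group (7.913) and a duct marker sum of 1925, the highest there. So 5 of the 7 lay in LF_LF 1 and HF_LF 5, the animals with the lowest amino acid response means of their groups, and in genes with positive slopes on that mean. Low values in these animals themselves raise such slopes, so the flags and the slopes are not independent. Without LF_LF 1 the slope fell from 0.72 to 0.52 for Nars and from 0.78 to 0.51 for Mars1. LF_LF 1 also had high adipocyte, T and NK cell and myeloid sums (2112, 392.4 and 4747), and their part in these values was not tested.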

How the results depend on the processing

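No paired analysis was possible because the replicate numbers only follow the order of deposit; the cage was used as a block in its place. The counts of synthetase genes called were 0 under every alternative for the post-weaning diet from LF dams, both maternal comparisons, the maternal average and the interaction. From HF dams the count was 1 (Gars, adjusted p 0.0386 to 0.0411) with no intensity trend, with cyclic loess and with the stricter filter, and 0 or 1 when a cage or an array was left out (1 without cage 1 or HF_LF 3). For the averaged post-weaning diet it was 2 with no intensity trend, cyclic loess, the stricter filter, array weights, without the arrays that stood apart or over every probe, 0 with 1 mean per cage and group, and 1 to 2 leaving out a cage or an array. Gars kept its call in 12 of 13 such alternatives and in every fit that left out a cage or an array. Counting every probe repeats the main fit, so it could not change the value of a single gene. Centring each array on its median could change little, since the medians lay at 62.9 to 63. For the slope it was 8 with background subtraction, 6 with the cage as a fixed block or with no filter, 5 with the test after Cyber-T, 4 with cyclic loess, 3 with array weights, 1 without the arrays that stood apart, 11 over every probe, and 1 to 8 leaving out a cage or an array (lowest without cage 8). The cause of these changes was not tested. Cage means leave fewer values to fit, and counting every probe adds probes to the count. Of 1163 recomputed values for single genes 1114 kept their side of the threshold, 44 lost their call, 5 gained one and 0 changed sign. The 1114 include genes that were not called in the main fit and the repeats of the main fit.

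Calls over all probes moved more. The averaged post-weaning count of 639 was 1261 with array weights, 389 with no filter, 324 with the test after Cyber-T, 191 with the cage as a fixed block and 178 with cage means. The count of 274 from HF dams was 479, 76, 48, 51 and 2 in that order. The slope's 292 was 1112 with the fixed block, 162 with the test after Cyber-T, 79 with cyclic loess, 35 without the arrays that stood apart and 33 with array weights. From LF dams the count of 5 ranged from 0 with the fixed block or cage means to 21 with 1 fit of 40 arrays (2 with background subtraction, 12 with array weights, 13 without the arrays that stood apart), the maternal count of 0 in LF-fed sons rose to 13 with array weights, and the maternal average of 8 ran from 0 with cage means to 70 with array weights. A fixed cage block could not be fitted for the maternal comparisons, since no cage holds both dam diets.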
